A study of Mus musculus with 272 samples.

Results

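The genes described here are those of respiratory complex I, taken as every symbol of the deposited table that starts with Nduf. They numbered 51 of 15854 symbols. The list holds 37 nuclear-encoded subunits, 8 assembly factors (Ndufaf1 to Ndufaf8), Ndufa4 with its paralog Ndufa4l2, and 4 further copies (Ndufb4c, Ndufb11b, Ndufa12-ps and Ndufs6b). Of the subunits, 7 belong to the catalytic core, 9 are accessory subunits of the matrix arm, 20 are accessory subunits of the membrane arm, and Ndufab1 is the acyl carrier protein. Ndufb4c carried the values of Ndufb4 in every library, so 50 genes had values of their own. Ndufa4 carries a complex I name but is counted as a subunit of complex IV by present knowledge, and it is therefore kept apart from the subunits.

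Complex I (NADH:ubiquinone oxidoreductase) takes electrons from NADH and passes them along a chain of iron-sulfur clusters to ubiquinone, while its membrane arm pumps protons across the inner mitochondrial membrane. Its core is shared between subunits made in the cytosol and subunits encoded by mitochondrial DNA, and many small accessory subunits surround that core. Assembly factors hold or modify intermediates and are absent from the finished enzyme. Oocytes inherit a stock of mitochondria and transcripts that serves the embryo until its own genome is transcribed.

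Mouse oocytes and preimplantation embryos of 8 stages were compared: the germinal vesicle (GV) oocyte, the metaphase II (MII) oocyte, the zygote, the 2-cell, 4-cell and 8-cell embryo, the morula and the blastocyst. All groups were untreated apart from cycloheximide in the lysates for the gradients, which holds ribosomes on transcripts. The labels used here give no strain, genotype or age. Each stage had 4 transcriptome libraries, each a pool of 20 oocytes or embryos, and 3 sucrose gradients (A to C, 10% to 40% sucrose) of about 100 oocytes or embryos each, cut into 10 fractions. Polyadenylated RNA was amplified and sequenced, and the authors deposited CPM, the reads of a gene scaled to a library total of 1 M reads. The labels do not say that the pools came from separate collections, so the p-values below measure the spread between these libraries, which may be technical. In such pools, fewer cells with a transcript and less of it per cell cannot be told apart.

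Promoters are shown because most subunit genes rose together from the 2-cell to the 4-cell embryo (33 of 37, given further on). RefSeq promoter windows (build GRCm38.p6, from 250 bases before to 50 after the start) matched 41 of the 51 symbols. The submitters' processing notes name GRCm39, and the coordinates here belong to GRCm38.p6. On both strands, 4 motifs known from genes of mitochondrial proteins were searched: an 11-base and a 10-base form of the palindromic NRF1 element, which can overlap, the ETS motif ACCGGAAG, and the YY1 motif AAGATGGCG. At least 1 motif was found for 17 of 41 genes (41.5%). Among the 11662 genes in the table with a window, these 41 included, the share was 13.6%, and among all 27025 genes 6.98%. A gene with several windows was counted once, with a motif in any of them. The share was 13 of 33 for subunits (39.4%) and 4 of 7 for assembly factors (57.1%). The YY1 motif was the most frequent, in 6 genes (14.6%, against 3.21% for genes in the table), followed by the longer NRF1 form in 5 (12.2%, against 5.61%). The ETS motif was found in 4 (9.76%, against 4.91%) and the shorter NRF1 form in 3 (7.32%, against 2.14%). A match says that the letters are present, not that a factor binds there. The stretches below carry the motif in capitals with up to 30 bases on each side, written along the gene's own strand: Ndufaf4 (chr4:24897939-24898009, plus strand), Ndufs5 (chr4:123718245-123718315, minus strand) and Ndufb4 (chr16:37654520-37654590, minus strand) with the longer NRF1 form, Ndufa11 (chr17:56717672-56717741, plus strand) with the shorter form, and Ndufaf1 (chr2:119662835-119662883, minus strand) with the ETS motif.
Ndufaf4: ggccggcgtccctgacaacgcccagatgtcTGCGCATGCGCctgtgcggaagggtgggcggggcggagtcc
Ndufs5: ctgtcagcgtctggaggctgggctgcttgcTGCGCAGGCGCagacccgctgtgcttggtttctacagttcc
Ndufb4: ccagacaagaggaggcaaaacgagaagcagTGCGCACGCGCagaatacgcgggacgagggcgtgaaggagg
Ndufa11: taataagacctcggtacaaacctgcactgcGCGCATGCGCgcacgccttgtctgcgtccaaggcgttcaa
Ndufaf1: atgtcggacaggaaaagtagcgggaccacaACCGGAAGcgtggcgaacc
Of these genes, Ndufs5, Ndufb4, Ndufa11 and Ndufaf1 rose from the 2-cell to the 4-cell embryo, while Ndufaf4 fell at the same step. Among all 49 Nduf genes tested, 40 rose there. Of the other genes with a motif, Ndufb6, Ndufs4 and Ndufaf5 were not called, and the rest rose. A link between motifs and the rise was not tested.

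Transcriptome libraries held 11.2 to 24.3 M reads, and fraction libraries 0.0102 to 43.2 M with a median of 18.6 M. Of the fractions, 15 held less than 1 M reads, and 14 of these were fraction 1 (GV gradients A and B, and every gradient of the 2-cell, 4-cell, 8-cell and morula stages). Calls of Nduf genes in the 2-cell to morula gradients are given with and without them. So are the centres of the core and accessory subunit lists from the 4-cell embryo to the morula. The 5 oocyte markers summed to 12946 to 14750 CPM in GV oocytes and to 4.26 to 11.5 CPM in blastocysts, and the 5 blastocyst markers reached 2537 to 3573 CPM in blastocysts. Only 3 of 8 markers of cumulus and granulosa cells were measured, and they summed to 6.02 to 68.9 CPM over all transcriptomes. Their median sums were highest in GV oocytes, MII oocytes and zygotes, at 39.9, 61.5 and 54.9 CPM. Amhr2 was at 0 in these stages, so Fshr and Cyp19a1 made up the sums there. From the 4-cell embryo to the blastocyst the median sums of the oocyte and of the cumulus and granulosa markers were higher in the fractions than in the transcriptomes. In blastocysts they were 13.1 against 6.97 CPM for the oocyte markers and 51.6 against 17.2 CPM for the cumulus and granulosa markers. In 4-cell fractions the cumulus and granulosa markers had a median sum of 303 CPM and a highest of 1274 CPM, against a median of 25.1 CPM in the transcriptomes, and in 8-cell fractions a median of 211 CPM. The oocyte markers had a median of 513 CPM in 4-cell fractions against 49.8 CPM in the transcriptomes. The part of these markers in the results was not tested.

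Transcripts of the 37 subunits went through a deep trough between the GV oocyte and the 4-cell embryo. Their summed level was 3845, 3440, 3679 and 3383 CPM in the 4 GV libraries, 891, 783, 778 and 737 CPM in MII oocytes, and 848, 804, 796 and 780 CPM in 2-cell embryos. In 4-cell embryos it was 3500, 4162, 4251 and 4097 CPM, and in blastocysts 8974, 8404, 11028 and 11022 CPM. The GV and 4-cell libraries overlapped, all MII and 2-cell libraries lay far below both, and every blastocyst library lay above all others. Zygotes stood at 895 ± 42.2 CPM, 8-cell embryos at 5127 ± 327 CPM and morulae at 6496 ± 525 CPM (SD, n = 4). CPM are shares of a library, so these values say nothing about the amount of RNA per embryo. Only polyadenylated RNA was measured, so here and below a change in amount and a change in polyadenylation cannot be told apart.

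The 8 assembly factors followed a flatter course. Their summed level was 781 ± 49.2 CPM in GV oocytes, 304 ± 37.7 CPM in MII oocytes, 438 ± 28.1 CPM in zygotes and 539 ± 57.7 CPM in 2-cell embryos (SD, n = 4). From the 4-cell embryo to the blastocyst it stayed between 485 and 495 CPM on average. The sum hides opposite movements: Ndufaf4 made up most of it up to the 2-cell stage, with 415 ± 53.8 CPM of the 539 CPM, and other factors replaced it later. The 7 core subunits had the widest span, from 626 ± 5.80 CPM in GV oocytes to 33.9 ± 5.10 CPM in MII oocytes and 1882 ± 98.5 CPM in blastocysts. The symbols ND1 to ND6 and ND4L carry no mitochondrial prefix here and were taken as the 7 subunits encoded by mitochondrial DNA. These 7 ran on another course, from 568 ± 56.4 CPM in GV oocytes to 17744 ± 6160 CPM in 2-cell embryos and back to 3738 ± 556 CPM in blastocysts. Single 2-cell libraries ranged from 8743 to 21973 CPM. The plot of summed levels by stage shows the 3 courses beside each other.

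**Figure D1:**
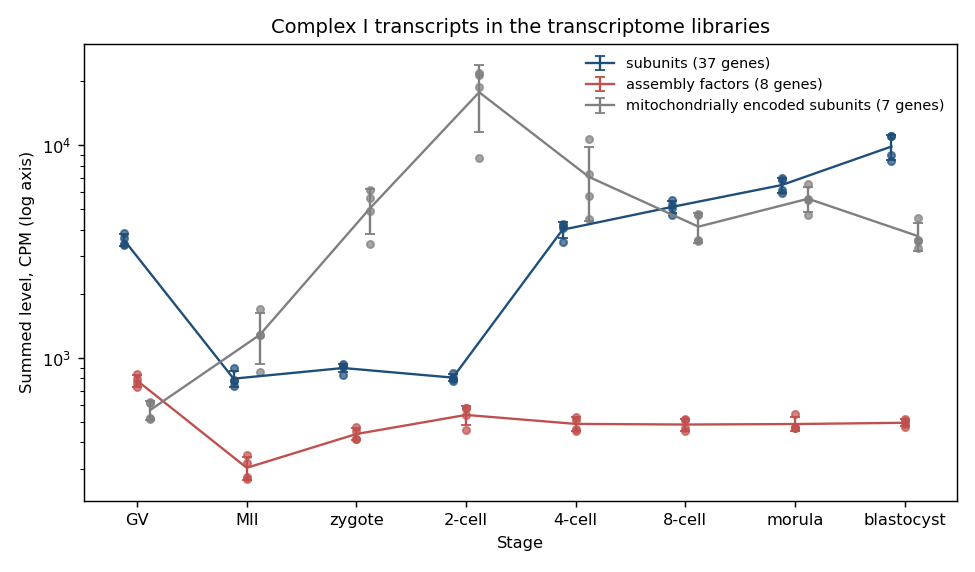
Summed level in CPM (log axis) of the 37 nuclear-encoded subunits, the 8 assembly factors and the 7 mitochondrially encoded subunits at each of the 8 stages; points are the 4 transcriptome libraries, lines join the means and bars are SD. Subunits fall to about 800 CPM in MII, zygote and 2-cell libraries and rise to 9857 CPM in blastocysts, while assembly factors stay between 304 and 781 CPM.

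Single genes showed which members made the trough and which did not. In the map of mean levels by gene, nearly all core and accessory subunits were low in MII oocytes, zygotes and 2-cell embryos. Ndufa10, an accessory subunit of the membrane arm with a nucleoside kinase fold, had its highest levels in 2 of these stages, at 342 ± 47.3 CPM in MII oocytes and 348 ± 36.7 CPM in zygotes (SD, n = 4). Ndufa4 stayed between 135 and 379 CPM on average at every stage. Ndufs1, the largest core subunit, stood at 15.9 ± 1.00 CPM in GV oocytes and at 70.6 ± 5.26 CPM in blastocysts.

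**Figure D2:**
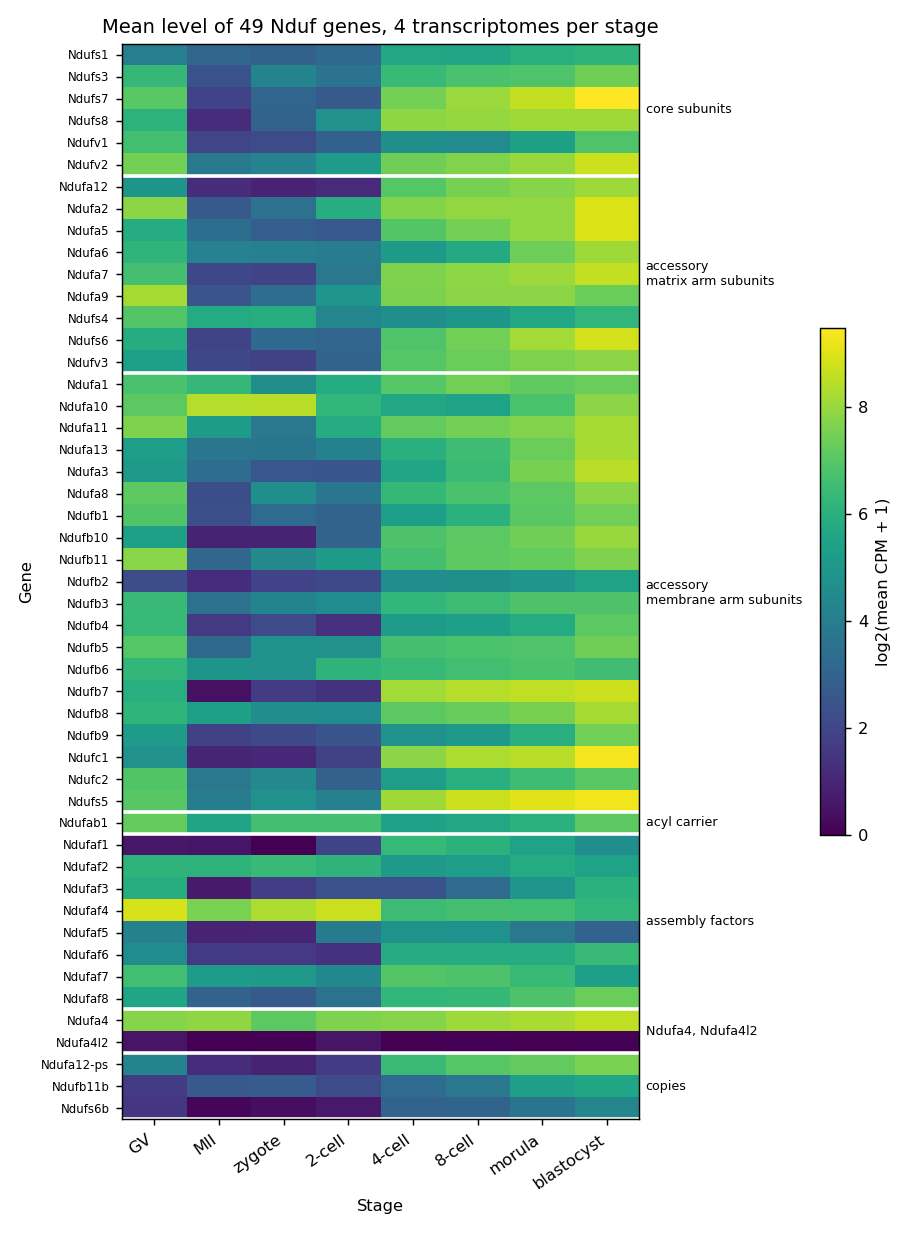
Mean level of 49 of the 50 genes with values of their own at the 8 stages, as log2(mean CPM + 1) over 4 transcriptome libraries; rows are genes grouped by role and columns are stages. The dark band of low values in MII, zygote and 2-cell columns runs through most subunits and is interrupted by Ndufa10, Ndufab1, Ndufaf2, Ndufaf4 and Ndufa4, among others.

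Changes between consecutive stages were tested over all genes with limma on log2(CPM + 1). A gene is called where the adjusted p is under 0.05 and the change is at least 1 on the log2 scale in either direction. The filter (CPM of at least 1 in at least 4 libraries) kept 49 of the 50 genes and 14642 genes in all. Ndufa4l2 did not pass: it was at 0 in all 20 libraries of MII oocytes, zygotes, 4-cell embryos, 8-cell embryos and morulae, and reached at most 0.931 CPM elsewhere. Consecutive comparisons share the libraries of the stage between them.

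Levels of complex I transcripts in polyadenylated RNA fell between the GV and the MII oocyte. Of 49 genes, 40 fell and 1 rose, where 25.3% of all genes tested were called lower and 9.11% higher (34.5% in either direction). Among subunits, 32 of 37 fell, with a median change of -3.68, and among assembly factors 6 of 8 fell, with a median of -1.98. The median over all genes tested was -0.11. Core subunits (6 of 7 fell, median -4.42) and matrix arm accessory subunits (9 of 9, median -3.72) moved most, and membrane arm accessory subunits less (16 of 20 fell, median -3.11). Quantile normalization moved the median of all genes by 0.27, to 0.16, and turned the split of all called genes from 1334 higher and 3711 lower to 3234 higher and 2578 lower. Under it 36 complex I genes still fell and 2 rose.

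The deepest fall of a subunit was that of Ndufa9, an accessory subunit at the joint of the matrix and membrane arms. It measured 306, 273, 291 and 284 CPM in GV oocytes and 3.59, 6.47, 3.75 and 4.70 CPM in MII oocytes, a change of -5.71 (SE 0.16, limma adjusted p = 3.579e-26). The groups lay far apart. Ndufv1, which binds the flavin that accepts electrons from NADH, was at 79.2, 105, 92.6 and 103 CPM in GV oocytes and at 4.07, 3.18, 2.49 and 2.11 CPM in MII oocytes (-4.61, SE 0.21, limma adjusted p = 2.891e-20). Ndufs3, another core subunit of the matrix arm, fell by 3.95 on the log2 scale. Ndufs1 measured 17.3, 15.8, 15.5 and 15.0 CPM in GV oocytes and 7.49, 8.03, 6.29 and 8.61 CPM in MII oocytes. Its groups did not overlap, but its change of -0.98 (SE 0.20) missed the threshold of size. Ndufa1 (-0.45) and Ndufb8 (-0.82), small membrane arm subunits, also missed it.

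Among assembly factors Ndufaf3, which works with Ndufaf4 on an early intermediate of the matrix arm, showed the deepest fall. It was at 66.4, 54.2, 59.7 and 51.7 CPM in GV oocytes and at 0.657, 1.11, 0.469 and 0.211 CPM in MII oocytes (-5.22, SE 0.26, limma adjusted p = 6.189e-19). Ndufaf4 itself measured 499, 463, 469 and 448 CPM in GV oocytes and 172, 213, 165 and 204 CPM in MII oocytes, a change of -1.32. The partners thus differed in depth although neither overlapped between the stages. Ndufaf5, Ndufaf6, Ndufaf7 and Ndufaf8 fell by 3.25, 2.98, 1.40 and 2.57. Ndufaf2, a paralog of the subunit Ndufa12 that takes part in a late step, changed by -0.04, and Ndufaf1, which helps to build the membrane arm, was below 1.4 CPM in all libraries of both stages. Ndufa10 was the 1 gene that rose: 132, 145, 124 and 131 CPM in GV oocytes against 395, 291, 366 and 316 CPM in MII oocytes, a change of 1.35 (SE 0.17, limma adjusted p = 2.543e-08), with every MII library above every GV library.

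Between the MII oocyte and the zygote 13 of 49 genes were called, 11 higher and 2 lower, where 10.3% of all genes tested were called (5.79% higher, 4.48% lower). Core subunits that rose included Ndufs3, Ndufs7 and Ndufs8, by 1.91, 1.19 and 1.80. The largest rise was that of Ndufa8, an accessory subunit on the outer face of the membrane arm, from 4.82, 3.96, 3.52 and 3.01 CPM to 27.2, 24.0, 30.6 and 17.2 CPM (2.40, SE 0.18, limma adjusted p = 8.763e-13). All zygote libraries lay above all MII libraries. Ndufa1 showed the largest fall, from 85.6, 90.6, 68.2 and 64.8 CPM to 25.9, 22.9, 22.6 and 25.7 CPM (-1.62, SE 0.16, limma adjusted p = 9.168e-10). Again the groups did not overlap. Over all subunits the median change was 0.39, and over assembly factors 0.03, beside 0.00 over all genes. Ndufaf3 was the 1 assembly factor called (1.06), and the call was lost without MII library D or zygote library C.

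From the zygote to the 2-cell embryo 12 of 49 genes rose and 3 fell, where 25.2% of all genes tested were called higher and 8.71% lower (33.9% in either direction). The direction of these counts depended on scaling: quantile normalization lowered the change of all genes by 0.45 in the median and gave 9 higher and 13 lower. Ndufa2, an accessory matrix arm subunit, showed the largest rise of a subunit, from 10.8, 10.1, 11.2 and 10.1 CPM to 41.4, 62.3, 64.3 and 64.6 CPM (2.33, SE 0.17, limma adjusted p = 4.79e-14). Ndufa10 showed the largest fall, from 307, 376, 382 and 327 CPM to 110, 70.3, 60.1 and 60.9 CPM (-2.23, SE 0.17, limma adjusted p = 1.798e-13). Both kept their calls under quantile normalization. Of the assembly factors, Ndufaf5 rose from 0.887, 1.37, 0.584 and 1.11 CPM to 11.9, 12.6, 18.5 and 13.3 CPM (2.92, SE 0.23, limma adjusted p = 3.031e-13). Ndufaf5 modifies the core subunit Ndufs7, whose own change was -0.48. Ndufaf1 was at 0 in all 4 zygote libraries and at 2.05, 1.84, 4.15 and 3.46 CPM in 2-cell embryos, at least 16.4-fold higher when the zygote is set at a floor of 3 reads per library.

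The largest rise of the subunits came between the 2-cell and the 4-cell embryo. Of 49 genes, 40 rose and 3 fell, where 31.8% of all genes tested were called higher and 32.9% lower (64.8% in either direction). All 7 core subunits, 8 of 9 matrix arm and 18 of 20 membrane arm accessory subunits rose, with median changes of 2.48, 3.72 and 2.40. The median over all genes was 0.02. Assembly factors split: Ndufaf1, Ndufaf6, Ndufaf7 and Ndufaf8 rose, Ndufaf2 and Ndufaf4 fell, and Ndufaf3 (-0.04) and Ndufaf5 (0.96) were not called. Their median was 1.73.

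Ndufb7, a small accessory subunit on the outer face of the membrane arm, showed the largest rise. It measured 0.706, 1.92, 1.27 and 2.58 CPM in 2-cell embryos and 265, 299, 304 and 252 CPM in 4-cell embryos (6.80, SE 0.18, limma adjusted p = 2.866e-27). Ndufs7, a core subunit with an iron-sulfur cluster next to ubiquinone, went from 7.76, 3.07, 4.99 and 5.08 CPM to 168, 227, 148 and 161 CPM (4.86). Ndufs1 was at 5.65, 6.97, 13.5 and 7.44 CPM before and at 48.9, 35.1, 66.7 and 51.0 CPM after (2.48, SE 0.20, limma adjusted p = 1.59e-13). In each of the 3 genes all 4-cell libraries lay above all 2-cell libraries. Ndufv1 and Ndufs3 rose by 1.86 and 2.82, and Ndufb8 by 2.45. Ndufa1 rose by 1.12, a call that was lost under quantile normalization and with edgeR. Ndufa10 (-0.62), Ndufb6 (0.23) and Ndufs4 (0.28) were the 3 subunits not called.

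Ndufab1 was the 1 subunit that fell at this step. Besides its place in complex I it is the acyl carrier of mitochondrial fatty acid synthesis. It measured 105, 94.5, 98.3 and 93.6 CPM in 2-cell embryos and 25.9, 53.8, 42.3 and 43.3 CPM in 4-cell embryos (-1.27, SE 0.15, limma adjusted p = 2.672e-09), with no overlap. Ndufaf4 showed the largest fall of any member. Its levels were 341, 448, 413 and 460 CPM in 2-cell embryos and 91.7, 84.0, 97.9 and 85.7 CPM in 4-cell embryos (-2.19, SE 0.13, limma adjusted p = 5.313e-17), and the groups lay far apart. Ndufaf2 was at 60.7, 77.3, 71.2 and 68.9 CPM before and at 33.7, 26.9, 26.7 and 45.9 CPM after (-1.07), and its call was lost without 4-cell library B or C.

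In the other direction, Ndufaf6, an early factor linked to the mitochondrially encoded subunit ND1, went from 1.99, 1.46, 0.677 and 2.06 CPM to 35.9, 59.2, 46.7 and 83.7 CPM (4.46, SE 0.24, limma adjusted p = 1.172e-18). Ndufaf1 rose nearly as much, to 91.7, 63.4, 90.1 and 75.4 CPM (4.42, SE 0.25, limma adjusted p = 7.464e-18). Ndufaf7, an arginine methyltransferase of the mitochondrial matrix, was at 21.2, 18.9, 20.0 and 20.5 CPM and then at 98.2, 104, 129 and 149 CPM (2.50). Ndufaf8, a stabilizer of Ndufaf5, rose by 2.72. Every 4-cell library of these 4 genes exceeded every 2-cell library. The plot of changes by transition shows the assembly factors on both sides of zero at this step and the subunits almost all above it.

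**Figure D3:**
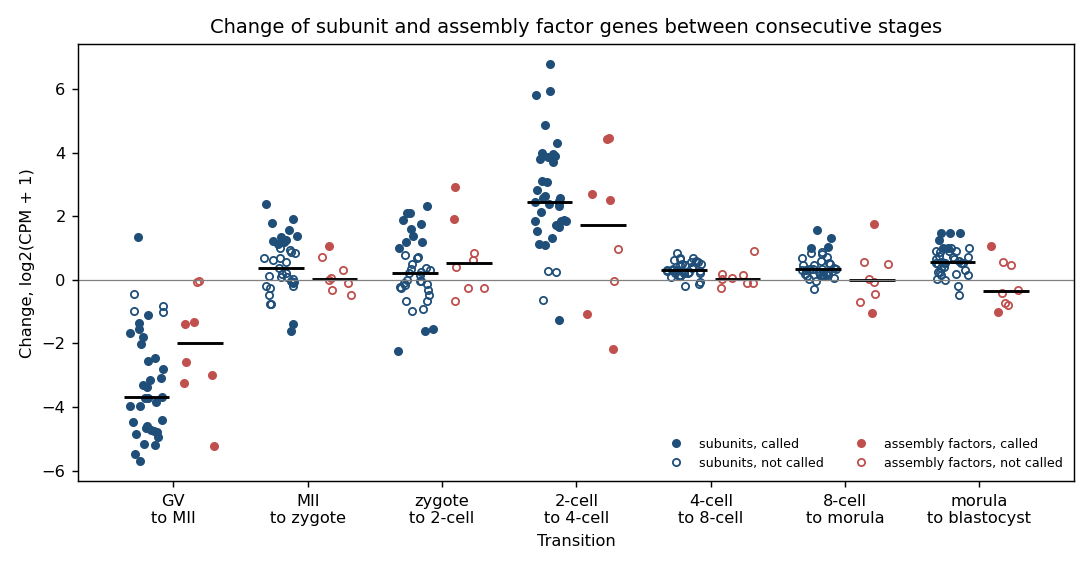
Change of each of the 37 subunits (blue) and 8 assembly factors (red) at the 7 transitions, on the log2(CPM + 1) scale; filled points are called, open points are not, and black bars are list medians. Subunits lie mostly below zero from GV to MII (median -3.68) and above it from the 2-cell to the 4-cell embryo (median 2.45), while assembly factors spread from -2.19 to 4.46 at the latter step.

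From the 4-cell to the 8-cell embryo limma called 0 of 49 genes, where 2.6% of all genes tested were called. At an unadjusted p under 0.05 there were 19 members, beside 3667 of all 14642 genes. With edgeR 2 members (Ndufa3 and Ndufaf3) and 577 of all genes were called. Quantile normalization gave 1 member and 269 of all genes. The changes of 34 of 37 subunits were above 0, with a median of 0.32, beside 0.04 for assembly factors and -0.11 for all genes.

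The later steps added fewer calls. Between the 8-cell embryo and the morula 6 of 49 genes rose and 1 fell, where 8.18% of all genes tested were called higher and 3.7% lower (11.9% in either direction). The count fell to 4 without 8-cell library A or without morula library D. Ndufa6, an accessory matrix arm subunit, showed the largest rise of a subunit, from 57.3, 51.1, 64.0 and 44.8 CPM to 218, 164, 125 and 160 CPM (1.58, SE 0.18, limma adjusted p = 5.347e-08). Ndufaf3 went from 4.20, 9.20, 10.4 and 11.6 CPM to 35.4, 28.5, 23.3 and 35.6 CPM (1.74, SE 0.26, limma adjusted p = 4.284e-06). In both, the stages did not overlap. Ndufa10 rose by 1.31. Ndufaf5 was the gene that fell, from 31.9, 31.0, 18.4 and 24.5 CPM to 14.0, 16.4, 9.86 and 9.52 CPM (-1.03), and this call was lost without any of 8-cell libraries A and B and morula libraries C and D, each left out alone.

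Between the morula and the blastocyst 7 of 49 genes rose and 1 fell, where 18.8% of all genes tested were called higher and 7.97% lower (26.8% in either direction). The share of members called was below that of all genes. Median changes were 0.56 for subunits and -0.36 for assembly factors, beside 0.16 for all genes. Ndufv1 rose most, from 41.8, 37.1, 39.1 and 44.4 CPM to 126, 114, 115 and 104 CPM (1.48, SE 0.21, limma adjusted p = 3.087e-07). All its blastocyst libraries lay above all its morula libraries. Ndufaf7 went the other way: 61.5, 79.5, 103 and 82.1 CPM in morulae and 44.0, 44.8, 32.7 and 37.4 CPM in blastocysts (-1.01, SE 0.15, limma adjusted p = 1.163e-06). The groups did not overlap, but the change sits at the threshold of size and its call was lost without morula library C or D or blastocyst library C or D. Ndufaf3 rose by 1.07, and its call was lost without morula library C, under quantile normalization and with edgeR. Ndufab1 rose by 1.02 and Ndufa10 by 1.01, calls that were likewise lost without single libraries and with edgeR.

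Assembly factors thus peaked at different stages. Mean levels of Ndufaf1 were 80.1 ± 13.4 CPM in 4-cell embryos, 66.1 ± 4.02 CPM in 8-cell embryos, 42.4 ± 16.0 CPM in morulae and 24.0 ± 4.18 CPM in blastocysts (SD, n = 4), and those of Ndufaf5 reached 28.1 ± 3.78 CPM in 4-cell embryos and 6.77 ± 2.06 CPM in blastocysts. Ndufaf7 was at 120 ± 23.6 CPM in 4-cell embryos. Ndufaf8 and Ndufaf3 were at their highest in blastocysts, with 159 ± 15.3 CPM and 65.3 ± 10.5 CPM, although neighbouring late stages of Ndufaf8 overlapped, with 81.1 to 155 CPM among morula libraries, and the blastocyst libraries of Ndufaf3 (51.0 to 73.9 CPM) overlapped those of GV oocytes (51.7 to 66.4 CPM). Ndufaf2 stayed within 33.3 to 84.2 CPM on average over all 8 stages.

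Ndufa4 was called at no transition. Its largest change was -0.80 from the MII oocyte (241, 248, 231 and 217 CPM) to the zygote (133, 111, 132 and 163 CPM), where the groups did not overlap. Of the copies, Ndufb11b rose from the 2-cell to the 4-cell embryo (1.05, lost without 2-cell library F or 4-cell library C) and again to the morula, from 11.6, 13.1, 18.2 and 8.71 CPM in 8-cell embryos to 55.4, 34.0, 29.2 and 40.7 CPM. Reads of a copy and its parent gene may be split by the counting. Values of Ndufb11 with Ndufb11b, Ndufa12 with Ndufa12-ps and Ndufs6 with Ndufs6b are therefore uncertain. Ndufb4 and Ndufb4c carried the same values in every library, so their reads cannot be told apart. The strand setting of the counting is not given in the sources used here. Reads of genes that overlap on opposite strands cannot then be told apart, which bears most on Ndufb6 (39% of its exonic bases overlap Smim27), Ndufa13 (30.0%, Tssk6) and Ndufb11 (12.9%, Rbm10). Ndufb9 overlaps Gm49356 on its own strand over 28.6% of its bases, where no strand setting separates the reads.

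Lists outside the Nduf genes gave a scale. Of 40 measured genes of the other respiratory complexes, 33 fell from GV to MII (median -2.80) and 35 rose from the 2-cell to the 4-cell embryo (median 2.42), against medians of -3.68 and 2.45 for complex I subunits. Of 10 complex I assembly factors without an Nduf symbol, 7 fell at the first of these steps and 7 rose at the second. Of the 7 mitochondrially encoded subunits, 4 rose from GV to MII (median 1.03), where 32 of 37 nuclear-encoded ones fell. All 7 rose from MII to the zygote (median 1.82, beside 0.39 for the nuclear-encoded subunits, of which 10 rose and 2 fell) and again to the 2-cell embryo (median 1.69, beside 0.22, with 10 up and 3 down). From the 2-cell to the 4-cell embryo 6 of 7 fell (median -1.32), where 33 of 37 nuclear-encoded subunits rose. They were measured in polyadenylated RNA, and their libraries varied more, as given above for the 2-cell embryo.

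The gradients separate RNA by the mass it travels with, so transcripts on many ribosomes lie toward the heavy end. The labels number the fractions without naming that end, and fractions 6 to 10 are taken here as the heavy side and 1 to 5 as the light side. The position of a gene in a gradient is given as its centre, the mean fraction number weighted by CPM, and compared as the difference between the log2(mean CPM + 1) of the heavy and of the light side, fitted with limma over 15172 genes. All 50 genes passed its filter. Each fraction is scaled to its own total, so a centre describes shares within fractions and not amounts of RNA along the gradient. Counts were sparse in the cleavage stages: 628 of 1500 values of members in single fractions (41.9%) were 0 in 2-cell embryos and 312 (20.8%) in 4-cell embryos, against 19 (1.27%) in blastocysts.

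Centres of the role lists moved apart as development went on. In MII oocytes the core subunits (4.31 ± 0.69), the matrix arm (4.13 ± 0.63) and the membrane arm accessory subunits (4.19 ± 0.44) all lay lighter than the assembly factors (5.37 ± 0.92) and than all genes (5.57 ± 0.14; SD of the list medians of the gradients, n = 3). In blastocysts the core subunits lay at 6.65, 6.59 and 6.76 in gradients A to C, the membrane arm accessory subunits at 5.27, 5.20 and 5.38, and the matrix arm accessory subunits at 4.67, 4.67 and 5.04. The list medians kept this order in each gradient and did not overlap. Single genes of the lists did overlap. Mean centres ran from 3.30 to 7.50 for core, 3.45 to 6.31 for membrane arm and 3.98 to 6.80 for matrix arm genes. Assembly factors were at 5.62, 5.28 and 5.61 there and all genes at 5.39 ± 0.19. In the 8-cell embryo and the morula the core was also heaviest of the 3 subunit lists, at 6.37 ± 0.31 and 6.62 ± 0.02, while in 4-cell embryos it lay below both accessory lists, at 5.24 ± 0.66 against 6.08 ± 0.13 and 6.36 ± 0.52. In the 4-cell embryo the assembly factors ran from 3.04 to 6.47 between gradients, too wide for a comparison. Without the fractions of under 1 M reads the centres lay further to the heavy side. The median over genes of the core, matrix arm and membrane arm lists went from 5.44, 5.60 and 6.10 to 5.80, 6.24 and 6.79 in 4-cell embryos, with all genes going from 4.92 to 5.51. It went from 6.46, 5.51 and 5.78 to 6.82, 6.03 and 6.18 in 8-cell embryos (all genes from 5.55 to 5.98) and from 6.77, 5.14 and 5.62 to 7.01, 5.58 and 6.11 in morulae (all genes from 5.67 to 6.11). The order of the 3 lists in each of these stages was the same with and without them.

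**Figure D4:**
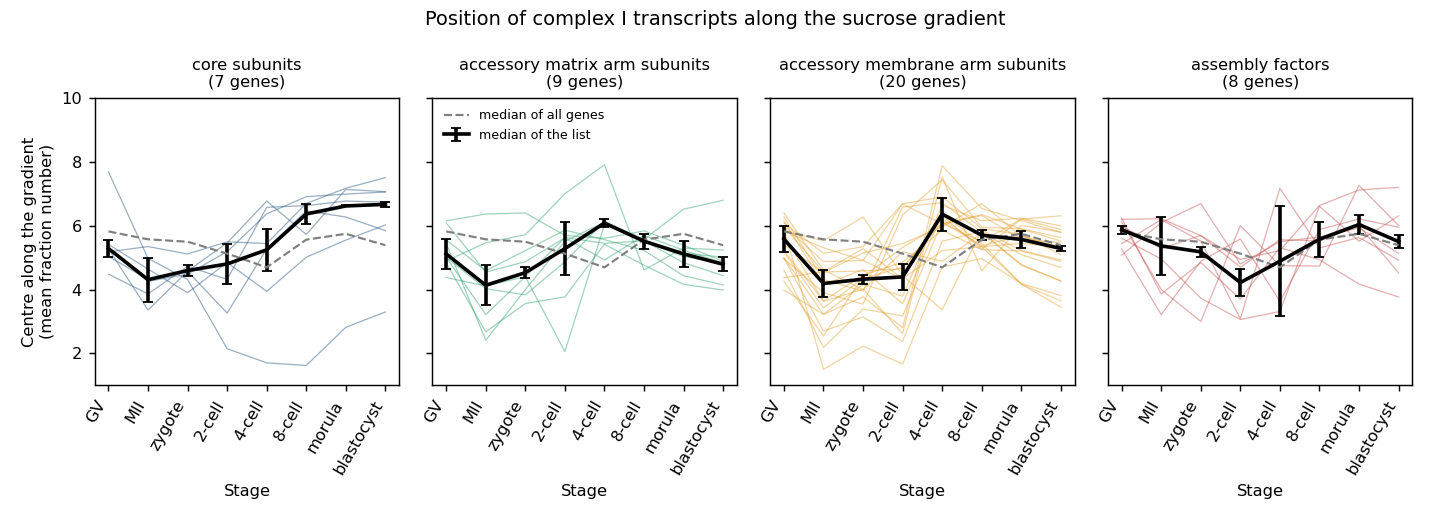
Centre along the gradient (mean fraction number weighted by CPM, 1 to 10) at the 8 stages for core subunits, both groups of accessory subunits and assembly factors; thin lines are genes (means of 3 gradients), black lines and bars are the mean and SD over gradients of the list median, and the dashed line is the median of all genes. Core subunits end at 6.67 in blastocysts against 4.79 for matrix arm accessory subunits, and Ndufs1 is the core line that runs below 2 in 4-cell and 8-cell embryos.

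In GV oocytes limma called 0 of 50 genes between the sides, where 0.0725% of all genes tested were called. At an unadjusted p under 0.05 there were 3, beside 828 of all 15172 genes tested. Subunits (median difference -0.04) and assembly factors (0.03) sat evenly on both sides.

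In MII oocytes 9 of 50 genes were higher on the light side and 1 on the heavy side, where 3.23% of all genes tested were called and 1.52% were light. All 9 were accessory subunits (Ndufa3, Ndufa7, Ndufa8, Ndufb4, Ndufb8, Ndufb10, Ndufb11, Ndufs6 and Ndufv3). The subunit median was -0.84, that of assembly factors -0.24 and that of all genes -0.06. No assembly factor was called. At an unadjusted p under 0.05 there was 1 of 8, beside 1967 of all 15172 genes. Ndufa3, a small membrane arm subunit, had mean levels of 2810, 634 and 648 CPM in the light fractions of gradients A to C and of 68.5, 41.9 and 57.0 CPM in the heavy ones (-4.24, SE 0.66, limma adjusted p = 5.2e-05). The sides lay far apart in each gradient. Fraction 1 alone carried the light level, with 13732, 2945 and 2990 CPM, while fractions 2 to 5 held 7.21 to 263 CPM. Ndufb11 was at 1751, 878 and 1188 CPM on the light and 245, 116 and 217 CPM on the heavy side (-2.73, SE 0.33, limma adjusted p = 7.584e-07). Ndufb8 was at 451, 265 and 395 CPM against 141, 102 and 132 CPM (-1.54, SE 0.38, limma adjusted p = 0.01199).

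Of the light calls in MII oocytes, those of Ndufa3 and Ndufb11 stood when any gradient was left out, and the count of called members fell to 3 or 4. With means of log2 values in place of the log2 of means, which weights fraction 1 less, 1 of the 10 remained. That gene was Ndufa4, the heavy one, at 34.8, 54.9 and 33.6 CPM on the light and 252, 188 and 175 CPM on the heavy side (2.31, SE 0.45, limma adjusted p = 0.001156). It kept its call under every alternative run. A fit of the MII gradients alone called 14 of the 48 genes it tested, where it called 19.5% of all genes. Of these, 13 were light, among them the core subunits Ndufs7 (-1.53) and Ndufs8 (-1.03), and the core median of -0.85 lay beside that of all subunits, so in that fit the light calls were not limited to accessory subunits.

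Zygotes kept the light position of 2 of 50 genes, Ndufa3 (-2.70) and Ndufb11 (-1.43), where 3.01% of all genes tested were called. Neither call stood when a gradient was left out. The median difference was -0.61 for subunits and -0.07 for assembly factors. Of the 8 assembly factors none was called, and 1 had an unadjusted p under 0.05, beside 2003 of all 15172 genes.

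In 2-cell embryos 4 of 50 genes were higher on the heavy side (Ndufa4, Ndufa11, Ndufa13 and Ndufb6) and 6 on the light side (Ndufa3, Ndufaf8, Ndufb4, Ndufb11, Ndufs1 and Ndufs7), where 6.43% of all genes tested were heavy and 11.8% light (18.2% in either direction). The member share is close to that of all genes. Ndufa4 stood at 15.4, 14.4 and 14.5 CPM on the light and 37.7, 82.8 and 97.7 CPM on the heavy side (2.12, SE 0.45, limma adjusted p = 0.0007406), with no overlap. Without the fractions of under 1 M reads Ndufa3, Ndufaf8, Ndufb11, Ndufs1 and Ndufs7 lost their calls, and Ndufa1 (1.78), Ndufa2 (1.81), Ndufv3 (2.42) and Ndufa12-ps (-1.45) gained one. With the gradient as a block Ndufaf8 also lost its call. Leaving out single gradients took the call from each of these genes except Ndufa3, Ndufb11 and Ndufa4. A fit of the 2-cell gradients alone called none of the 41 members it tested, where it called 1.9% of all genes. At an unadjusted p under 0.05 there were 5 members, beside 2187 of the 9889 genes in that fit.

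In 4-cell embryos 3 of 50 genes were heavy (Ndufa11, Ndufa13 and Ndufb7), where 3.4% of all genes tested were, and Ndufs1 was light (16.3% of all genes in either direction). Ndufb7, the gene with the largest rise in the transcriptomes, was at 3.60, 49.3 and 70.6 CPM on the light and 209, 322 and 272 CPM on the heavy side (3.38, SE 0.61, limma adjusted p = 0.0001408). The sides did not overlap, and without the shallow fractions the difference was 3.32. Without those fractions 7 genes were called, leaving out 1 gradient gave 5 to 8 (Ndufa13 lost its call without gradient A or B). A fit of the 4-cell gradients alone called none of the members (3 of 47 had an unadjusted p under 0.05) and 0% of all 8575 genes it tested. Of these 8575 genes, 1276 had an unadjusted p under 0.05. The median was 0.36 for subunits, -0.06 for assembly factors and -0.26 for all genes. None of 8 assembly factors was called, and 1 had an unadjusted p under 0.05, beside 4347 of all 15172 genes.

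Later stages held 2 calls each of 50 genes. In 8-cell embryos Ndufs1 and Ndufab1 were light (9.05% of all genes tested were called in either direction). Ndufab1 was at 174, 135 and 161 CPM on the light and 16.0, 40.8 and 26.0 CPM on the heavy side (-2.55, SE 0.51, limma adjusted p = 0.0005549), with 682, 506 and 562 CPM in fraction 1. Both calls were lost without fraction 1, where Ndufab1 differed by -0.93. In morulae Ndufs8, a core subunit with iron-sulfur clusters, was heavy and Ndufaf8 light (5.81% of all genes called). Ndufs8 was at 243, 340 and 189 CPM against 616, 715 and 658 CPM (1.40, SE 0.43, limma adjusted p = 0.03911). Both calls were lost when any gradient or fraction 1 was left out, and that of Ndufaf8 also with the gradient as a block.

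In blastocysts, the stage with the fewest zeros and no shallow fraction, Ndufaf8 and Ndufc1 were light (2.74% of all genes called). Ndufaf8 was at 535, 409 and 383 CPM on the light and 109, 92.5 and 99.3 CPM on the heavy side (-2.12, SE 0.43, limma adjusted p = 0.001767). Ndufc1, a small membrane arm subunit, was at 1185, 778 and 629 CPM against 189, 152 and 236 CPM (-2.13, SE 0.51, limma adjusted p = 0.009807). The sides did not overlap in either gene, but Ndufaf8 lost its call without gradient A and Ndufc1 without gradient A or B. Ndufv1 was at 84.2, 106 and 71.4 CPM on the light and 236, 271 and 293 CPM on the heavy side, and Ndufaf7 at 18.6, 19.0 and 18.7 CPM against 50.4, 55.2 and 75.7 CPM. Both differed without overlap, by 1.61 each, and neither was called (limma adjusted p = 0.4174 and 0.7325), in a fit whose spread is shared with the sparse early stages. In a fit of the blastocyst gradients alone 14 of 49 genes were called, where 21.7% of all genes were. The heavy ones included Ndufv1 (1.61), Ndufs3 (1.47), Ndufs8 (1.19) and Ndufaf7 (1.61). The light ones were Ndufc1, Ndufaf8, Ndufb1, Ndufs1, Ndufa7, Ndufa3, Ndufa2, Ndufb4 and Ndufa1, from -2.13 to -1.09. In a fit of the morula gradients alone 9 of 49 were called, where 14.7% of all genes were, with Ndufv1, Ndufs3, Ndufs8 and Ndufaf7 heavy and Ndufs1, Ndufaf8, Ndufc1, Ndufb1 and Ndufa7 light. In both stages the share of members called was near that of all genes.

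With all fractions, Ndufs1 had the heaviest centre of the core subunits in GV oocytes and the lightest from the 2-cell embryo to the blastocyst. In MII oocytes and zygotes it lay inside the core range, at 4.97 (range 3.36 to 5.35) and 4.31 (range 3.90 to 5.11). In GV oocytes it lay heavy, at 2.39, 5.89 and 2.96 CPM on the light and 23.6, 19.3 and 8.65 CPM on the heavy side (1.90, SE 0.69, limma adjusted p = 0.5326, not called). In 4-cell embryos it was light, at 219, 242 and 145 CPM against 4.64, 18.4 and 7.28 CPM (-4.36, SE 0.69, limma adjusted p = 1.932e-05), and in 8-cell embryos at 130, 152 and 101 CPM against 15.4, 1.40 and 5.82 CPM (-4.30, SE 0.69, limma adjusted p = 2.252e-05). Its centre went from 7.69 at the GV stage to 1.70 and 1.62 at the 4-cell and 8-cell stages and was 3.30 at the blastocyst stage, where Ndufv1 reached 7.50 and Ndufs3 7.05. Much of the light signal came from fraction 1, which held 689, 973 and 553 CPM in 4-cell and 548, 617 and 414 CPM in 8-cell embryos. Those libraries held less than 1 M reads. Without the libraries of under 1 M reads, which in 4-cell embryos also included fraction 6 of gradient A, the difference was -2.65 in 4-cell embryos (still called) and -2.15 in 8-cell embryos (not called), and the centre was 3.43 and 3.72. In 2-cell embryos the difference turned from -2.50, called, to 1.43, not called, and the centre from 2.15 to 6.12. In morulae the centre went from 2.82 to 5.85. Without those libraries both centres lay inside the core range, which was 4.02 to 6.52 in 2-cell embryos and 5.78 to 7.75 in morulae. The exons of Ndufs1 overlap Ino80dos on the other strand over 8.8% of their bases, and reads of that gene were not separated.

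The differences in position between stages were tested in the same fit. From GV to MII, 2 of 50 genes moved toward the light side, Ndufa3 (-4.86) and Ndufb11 (-2.11), where 0.112% of all genes tested moved that way and 0.185% either way. The call of Ndufa3 was lost without GV gradient A or B or MII gradient A, and that of Ndufb11 without any single GV or MII gradient and under other settings. From the zygote to the 2-cell embryo Ndufa11 (2.86) and Ndufa13 (2.64) moved toward the heavy side (2 of 50, where 1.73% of all genes did and 4.65% moved either way). Both calls were lost with means of log2 values and in a fit of these stages alone, which called 0.847% of all genes, and that of Ndufa13 also without zygote gradient A or 2-cell gradient C. The most moved from the 2-cell to the 4-cell embryo, 8 of 50, all toward the heavy side, where 4.52% of all genes did and 11.7% moved either way. They were Ndufb7 (3.95), Ndufa3, Ndufb4, Ndufb9, Ndufb11, Ndufb11b, Ndufc1 and Ndufb8 (1.87). All but Ndufb11b, a copy, are accessory subunits of the membrane arm. A fit of these stages alone called none of the 50 (3 had an unadjusted p under 0.05) and 0% of all 12290 genes. Of these 12290 genes, 1417 had an unadjusted p under 0.05. Means of log2 values took the call from 6 of the 8, all but Ndufb7 and Ndufb11, and without fractions of under 1 M reads Ndufa3, Ndufb8 and Ndufc1 were not called. The calls of Ndufb7 and Ndufb11 stood when any gradient was left out, and each of the others was lost without at least 1. Ndufb8 was at 46.1, 86.1 and 64.3 CPM on the light and 32.9, 17.4 and 66.8 CPM on the heavy side in 2-cell embryos, and at 85.6, 51.8 and 67.9 CPM against 93.2, 145 and 175 CPM in 4-cell embryos. In each 2-cell side the gradients overlapped, and in 4-cell embryos all heavy values exceeded all light ones.

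No member moved between the sides at the other 4 steps by limma. At these steps, in order, 0.0198%, 2.47%, 0.534% and 0.0198% of all genes tested were called. Members with an unadjusted p under 0.05 numbered 3 from MII to the zygote and 5 from the 4-cell to the 8-cell embryo. They numbered 2 to the morula and 0 to the blastocyst. At the same unadjusted threshold there were 426, 2436, 1286 and 507 of all 15172 genes. The differences between late stages in the place of single core genes were therefore not shown by a test. The centre of the mitochondrially encoded subunits was 4.15 ± 2.13 in GV oocytes, 5.69 ± 0.45 in MII oocytes and 6.45 ± 0.98 in zygotes, and it was 3.69 in 2-cell embryos, 4.01 in 4-cell embryos, 3.68 in 8-cell embryos, 3.22 in morulae and 2.80 ± 0.21 in blastocysts (SD of the medians of the gradients, n = 3). From the 2-cell embryo on, 2, 2, 4, 4 and 6 of the 7 were called light, where 1783, 1952, 1005, 633 and 320 of all 15172 genes tested were. From the 2-cell embryo to the morula these calls and centres include the fractions of under 1 M reads. Values without those fractions, which lie mostly on the light side, are not given for this list. In blastocysts the median difference of the mitochondrially encoded subunits was -3.90, where 2.11% of all genes tested were light.

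Coding length sorted the subunits along the late gradients. Over the 36 subunits with a coding length in the GENCODE annotation of GRCm38, the rank correlation of length and centre was 0.64 in blastocysts (0.64 to 0.67 in single gradients) and 0.54 in morulae (0.46 to 0.60). It was 0.03 in 8-cell embryos, -0.01 in MII oocytes and -0.27 in GV oocytes. These are correlations across genes, which share libraries and are not independent replicates. Over 12931 genes the same correlation in blastocysts was -0.16. Core subunits are longer (median 789 bases) than matrix arm (393) and membrane arm (411) accessory subunits, so role and length cannot be told apart in these lists. Ndufv3, an accessory subunit of the matrix arm with 1404 bases, lay lighter than others of its length, at 4.82 in blastocysts. Ndufs1, the longest at 2181 bases, lay against the relation, and without it the correlation was 0.79 in blastocysts and 0.68 in morulae. Of the assembly factors, Ndufaf8, with 258 coding bases, had a centre of 3.77 in blastocysts, and Ndufaf7, with 1308, of 7.20. Without the shallow fractions the morula value was 0.61, and that of 4-cell embryos went from 0.18 to -0.23.

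**Figure D5:**
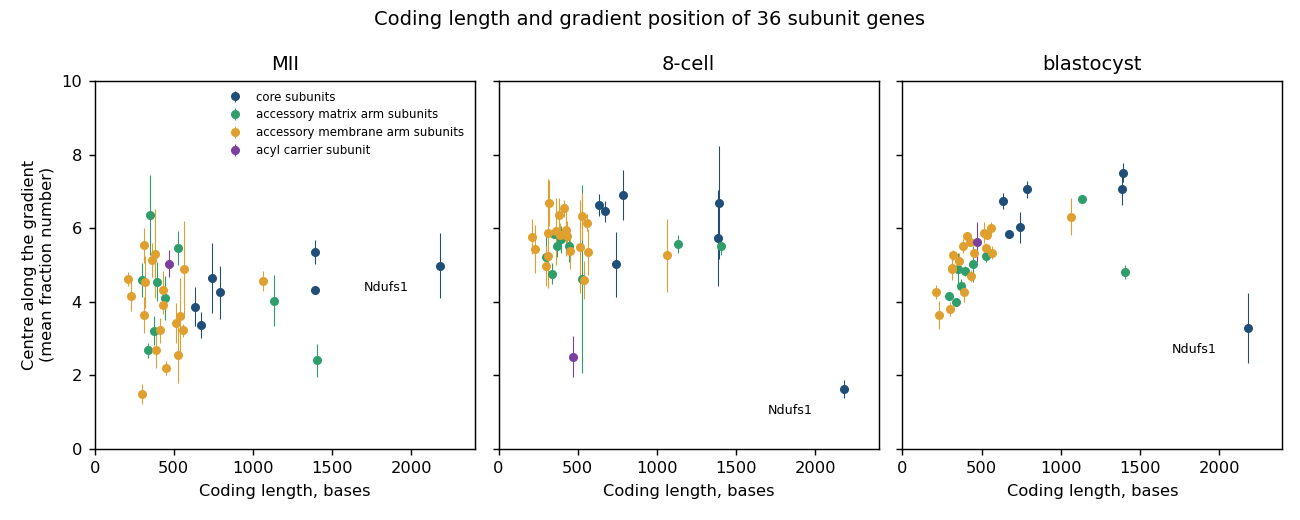
Coding length in bases (x) and centre along the gradient (y, mean fraction number) of 36 subunits in MII oocytes, 8-cell embryos and blastocysts; points are means and bars SD over 3 gradients, coloured by role. In blastocysts longer subunits lie heavier (rank correlation 0.64), with Ndufs1, labelled, at 3.30 despite its 2181 bases.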

How the data were processed

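Per the submitters' processing notes, reads were handled with Trim Galore 0.6.7, FastQC, HISAT2 2.2.1, featureCounts 2.0.1 and edgeR, with GRCm39 named as build. The authors deposited 1 table of CPM for 272 libraries, not scaled by length. They deposited 9 columns whose sums exceed 1 M, recorded as signal and used as CPM. All excess sums came from symbols listed with identical values (159 symbols in 76 groups), of which 1 per group was kept, leaving 15771. Values came out as whole reads in 100% of cases (tolerance 0.05 reads), so reads could be recovered. Per the labels, libraries were made with a Smart-seq kit and sequenced as 150-base paired ends.

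Here limma 3.58.1 (R 4.3.3) tested log2(CPM + 1) over all genes passing a filter, with Benjamini-Hochberg adjustment per comparison: 32 transcriptomes in 1 fit, and 48 side means (fractions 6 to 10 and 1 to 5 of each gradient; CPM of at least 1 in at least 3) in another. edgeR 4.0.16 (quasi-likelihood) on recovered reads was an alternative. It called 6831, 2195, 5864, 10210, 577, 2290 and 4592 genes at the 7 transitions. The scripts were tested on simulated data. The members and lists were chosen with earlier results of these data known. Nduf genes could be named, except 1 that is not reported here and enters only the counts and summaries. Those with values per sample were Ndufs1, Ndufv1, Ndufs3, Ndufa1, Ndufb8, Ndufab1, Ndufa4, Ndufa4l2, the Ndufaf genes, and the subunit and assembly factor that moved most in each comparison. Ndufs7, Ndufs8, Ndufc1 and Ndufb11b were added after their values were seen.

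No 2 libraries agreed within sampling noise: over 288 replicate pairs the lowest chi-square per degree of freedom was 2.55. Transcriptome columns of the 2-cell stage are lettered E to H, letters that their labels do not use (A to D), and were taken as replicates without a letter. Transcriptomes that share a letter did not deviate together (median correlation 0.02, from -0.20 to 0.22). Both sides of a gradient come from the same lysate (median correlation 0.11, against -0.06 between gradients), and the gradient was an alternative block.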

Additional observations from a re-analysis of the deposited data

Results flagged for a closer look

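Over 152 groups of 4 transcriptome libraries, 7 values lay far from the other 3 of their group by Dixon's criterion, which chance alone meets in about 1 in 20 groups. The summed assembly factors stood at 543 CPM in morula library A, against 468 to 471 CPM in the others, and Ndufaf2 in the same library at 72.0 CPM, against 47.0 to 51.0 CPM. Ndufa1 was at 198 CPM in 8-cell library D (161 to 165 CPM in the others), Ndufab1 at 42.1 CPM in 8-cell library A (52.6 to 54.5 CPM), Ndufs3 at 89.3 CPM in GV library A (73.5 to 76.0 CPM) and Ndufaf1 at 1.34 CPM in MII library B (0.0938 to 0.219 CPM). Ndufa4l2 was at 0.112 CPM in blastocyst library B and at 0 in the other 3.

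The difference between heavy and light fractions of Ndufb8 changed by 1.87 from the 2-cell to the 4-cell embryo (-0.89 before, 0.98 after), and the test of that change itself was called (limma adjusted p = 0.01698). The call was lost without the fractions of under 1 M reads and in a fit of these stages alone.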

How the results depend on the processing

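The counts of called genes in the transcriptomes held within 1.5 times under a pseudocount of 0.1, no filter, the replicate letter as a block (41, 13, 0, 7 and 8 genes where letters were shared), quantile normalization and edgeR, except from the 4-cell to the 8-cell embryo (0 became 1 with quantile normalization and 2 with edgeR). Leaving out 1 library gave 41 to 43, 12 to 15, 14 to 16, 41 to 44, 0 to 1, 4 to 7 and 6 to 11 genes over the 7 transitions. Calls between heavy and light fractions depended on more choices. For MII, the 10 genes became 6 with a pseudocount of 0.1 and 1 with means of log2 values. For GV, means of log2 values gave 1. All genes called went from 490 to 320 and 1031 in MII oocytes and from 11 to 332 in GV oocytes. The 2 zygote genes became 6 with quantile normalization, 6 of 49 in a fit of that stage alone, 5 with fractions 8 to 10 against 1 to 3, and 1 with means of log2 values. All genes called in zygotes went from 456 to 731, 2092 (of 11323 tested), 884 and 1399 under these settings. The 10 genes of 2-cell embryos became 17 with a pseudocount of 0.1 and 0 in a fit of that stage alone, while all genes called went from 2758 to 2790 and 188. The 4 genes of 4-cell embryos became 7 with quantile normalization, 0 in a fit of that stage alone, 11 with fractions 8 to 10 against 1 to 3, and 7 without fractions under 1 M reads. For 8-cell embryos, 2 became 1 without those fractions. All genes called went from 2468 to 1881, 0, 2604 and 1815 in 4-cell embryos and from 1373 to 747 in 8-cell embryos. The 2 morula genes became 1 with a pseudocount of 0.1, 9 in a fit of that stage alone, 5 with fractions 8 to 10 against 1 to 3, and 0 without shallow fractions. In blastocysts 2 became 1, 14 and 7 under the first 3 of these. All genes called went from 882 to 823, 1610, 1294 and 469 in morulae and from 416 to 415, 2416 and 699 in blastocysts. Changes of position were 2 from GV to MII, and 1 with quantile normalization, 1 with fractions 8 to 10 against 1 to 3 and 0 with means of log2 values. They were 2 from the zygote to the 2-cell embryo, and 0 in a fit of those stages alone or with means of log2 values; 8 from the 2-cell to the 4-cell embryo, and 0 in a fit of those stages alone; and 0 from the 4-cell to the 8-cell embryo, and 2 with fractions 8 to 10 against 1 to 3. Leaving out 1 gradient gave 0, 3 to 4, 0, 8 to 11, 5 to 8, 2, 0 and 0 to 2 genes from GV to blastocyst, and 0 to 1, 0, 1 to 4, 5 to 12, 0 to 1, 0 and 0 changes of position. The cause was not tested. With the gradient as a block the counts by stage were 0, 11, 3, 9, 5, 2, 2 and 3, and the block took the call from Ndufaf8 in 2-cell embryos and morulae. Over the 33 genes given by sample or with the largest changes, 2779 of 2861 values kept their side of the threshold and, where called, their direction; 37 lost and 42 gained a call, and 3 called values reversed, all in 2-cell embryos without fractions under 1 M reads: Ndufa1 to 1.78, Ndufaf8 to 0.17 and Ndufs1 to 1.43. Over all members, 22 differences between the sides changed sign without those fractions, these 3 included. Leaving out 1 library or gradient kept 2118 of 2174. Both totals include values not called in the main fit, so they do not give the share of calls that held. The removal of fractions under 1 M reads was chosen after seeing the data. Zeros were most frequent in the 2-cell gradients (41.9% of members' values in single fractions); their part in these changes was not tested.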
